A study of Mus musculus with 12 samples.

Results

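The 4 liver arrays from mice given an adeno-associated virus carrying GFP were compared with 8 liver arrays taken as one group, 4 from mice given a virus carrying human glucocorticoid receptor beta and 4 from mice given saline. All 12 arrays of the series entered the comparison, and their groups were taken from the sample titles. The question was for which genes the GFP vector alone stood apart. On 25 of 26593 tested probes, which belong to 23 of 18882 genes, each of the 4 AAV-GFP arrays lay above or below each of the 8 others.

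The groups are called AAV-GFP (n = 4), AAV-hGRB (n = 4) and PBS (n = 4) after the labels. All mice were male C57BL/6 animals of 3 months with a GR knockout in the liver, so the deletion was shared by every group and no mouse with intact GR was measured. Total RNA of whole liver was labelled with Cy3 and measured on Agilent arrays of 1 colour, with a separate array for each sample. The promoter of the vectors, their dose, the time between injection and tissue collection, the feeding state and the hour of collection were not stated in these sources. Samples carry numbers within each group, with no statement that each came from its own animal, so the p-values below measure only the spread between these samples. In a whole-liver sample, fewer cells of a type and less RNA per cell cannot be told apart.

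Adeno-associated virus enters hepatocytes efficiently, and a GFP vector carries the same kind of particle as the vector of interest without its protein. Human GR beta arises by alternative splicing of the GR transcript and lacks the binding of the usual hormones. In fasting, glucagon raises cyclic AMP in hepatocytes, protein kinase A phosphorylates the transcription factor CREB, and CREB with its partners turns on genes of glucose production such as Pck1 and G6pc. Glucocorticoids acting through GR, and fatty acids acting through PPAR alpha, turn on partly the same genes.

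Levels are given as log2 intensity relative to the 75th percentile of the array, so that 0 is the intensity of that percentile and a difference of 1 is 2-fold. AAV-GFP replicate 3 was the dimmest array. Its 75th percentile was 209 intensity units, against 463, 521 and 474 on the other AAV-GFP arrays, 389 to 598 on the AAV-hGRB arrays and 349 to 569 on the PBS arrays. It also had the lowest share of probes well above background, 54.9%, where the other arrays had 55.9% to 66.3%. Its values are therefore given singly for the genes described in detail, and the value without it is stated where leaving it out turned a sign or moved a difference or a median by over 1.5 times. Without it, the median difference of all genes was 0.02 in place of 0.04. AAV-GFP replicate 4 was alone on its slide and alone on the second scan day, so its array and that day cannot be told apart. The hepatocyte markers were high on every array: Ahsg, a secreted liver glycoprotein, averaged 10.39 ± 0.53 on AAV-GFP arrays and 10.07 ± 0.28 on the 8 others (SD). Its difference of 0.32 was 0.06 without AAV-GFP replicate 3 and 0.04 after quantile normalization.

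**Figure D1:**
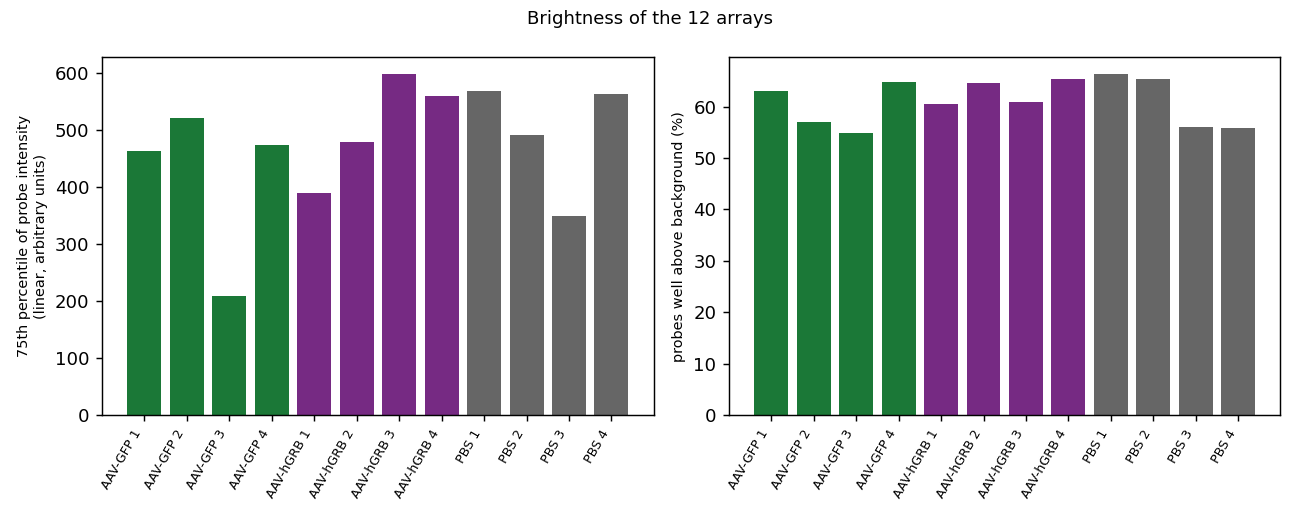
Brightness of the 12 arrays. The left bars give the 75th percentile of probe intensity (linear scale, arbitrary units) and the right bars the percentage of probes well above background, 1 bar per array in the order AAV-GFP, AAV-hGRB, PBS. AAV-GFP replicate 3 has the lowest bar in both panels, 209 units and 54.9%.

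No probe passed the test across the array. limma with Benjamini-Hochberg adjustment over 26593 probes called 0 at an adjusted p under 0.05 (0% called), and the lowest adjusted p was 0.9999. An unadjusted limma p under 0.05 was reached by 454 probes (1.71%), 295 of them higher (1.11%) and 159 lower (0.598%) in AAV-GFP. This total is smaller than the 1330 probes that chance alone gives at that p if no probe differs. Reaching that p is therefore weak evidence for any single gene below. The groups did not overlap on 21 probes in the higher direction (0.079% of those tested) and on 4 in the lower direction (0.015%), 0.094% in all. With each gene taken at its brightest probe, 15 genes were higher (0.0794%) and 3 lower (0.0159%) without overlap. The genes described below are therefore those that stood apart by this description, none of which passed the adjusted test. With 4 arrays against 8 there are 495 arrangements, and the exact two-sided permutation p of a single gene whose groups do not overlap is 0.00404, the smallest they can give. This p follows from the rule by which the genes were picked and adds no evidence for them. Averaged over all 495 arrangements, a fraction of 0.00404 of the probes separates, more than the 0.094% seen here.

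The same rule applied to the other labelled groups gave larger counts. AAV-hGRB stood apart from the other 8 arrays on 219 probes (0.824%), with 8 called by limma (0.0301%), all higher. PBS stood apart on 49 probes (0.184%), with 0 called (0%) and 865 at an unadjusted limma p under 0.05 (3.25%). On none of the 25 probes of AAV-GFP did AAV-hGRB and PBS differ at an unadjusted limma p under 0.05, which 1553 of all 26593 probes reached. For 25 probes a count of 0 is near that share, so it does not show that AAV-hGRB and PBS agreed on them.

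The split between directions depended on how the arrays were scaled. It was 15 higher and 0 lower with normexp background correction, 20 and 8 after quantile normalization, 28 and 2 after median scaling, and 15 and 10 when the percentile was taken over probes well above background on all arrays. Of the 25 probes, 9, 8, 8 and 13 remained apart under these 4 scalings in that order. Only the probe of Adh6-ps1 remained apart under all 4. The median difference of all tested genes was 0.04, and 57.1% of genes had a positive difference.

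**Figure D2:**
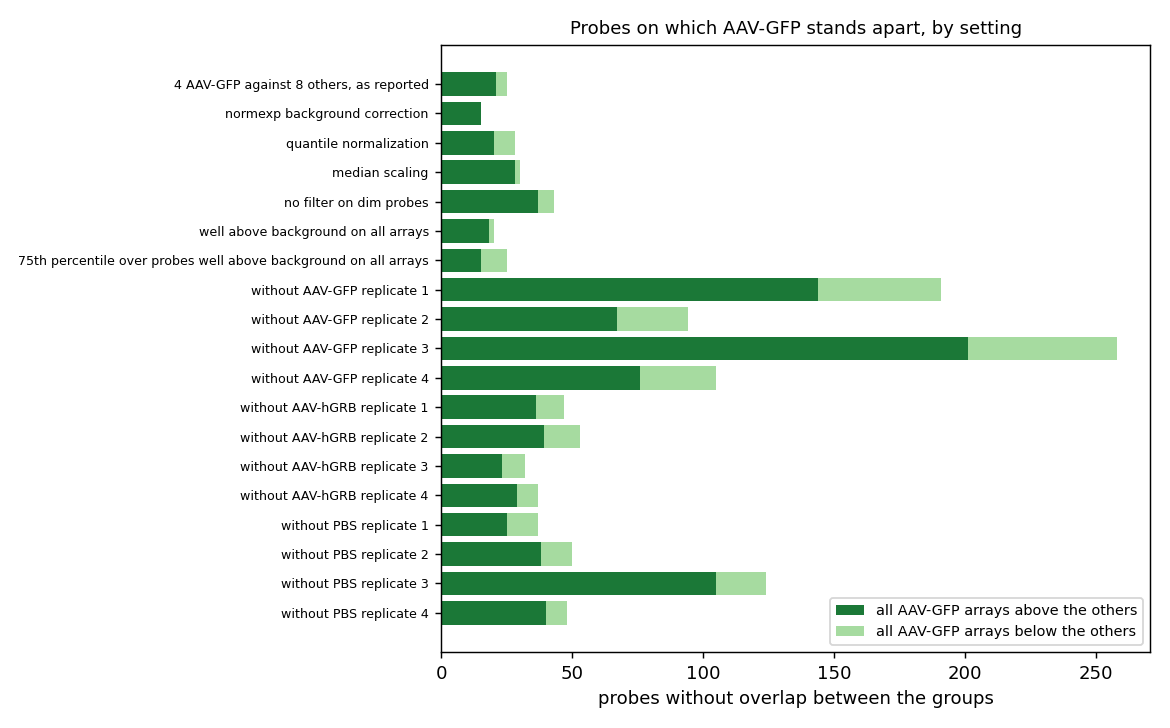
Number of probes on which the groups did not overlap, by setting (x axis: probes; dark part, all AAV-GFP arrays above the others; light part, all below). The reported setting has 21 and 4 probes. Among the settings plotted, which leave out at most 1 array, the longest bar is that without AAV-GFP replicate 3, with 201 and 57 probes.

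The gene with the largest difference among those standing apart was Slc25a25, a mitochondrial carrier of the inner membrane that exchanges ATP-magnesium for phosphate. Its level was 5.71, 4.75, 5.33 and 4.89 on the AAV-GFP arrays, against 3.20, 4.71, 2.72 and 3.13 on the AAV-hGRB arrays and 3.52, 3.93, 4.23 and 3.73 on the PBS arrays. All 4 AAV-GFP arrays were above the 8 others, with AAV-hGRB replicate 2 close below the lowest of them. The difference was 1.52 on the log2 scale (SE 0.34, 95% confidence interval 0.80 to 2.25), a 2.87-fold higher level. It was 1.47 without AAV-GFP replicate 3. Set against each group alone, with the AAV-GFP arrays shared by both values, it was 1.73 against AAV-hGRB and 1.32 against PBS, while AAV-hGRB minus PBS was -0.41.

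Slc25a25 was the only one of the 12 standing-apart genes with several tested probes for which every probe stood apart. Its 3 probes lie on the minus strand of chromosome 2 in the array design's build mm7, at 32422066 to 32422125, 32422402 to 32422461 and 32424723 to 32425052. The middle probe read 4.25, 2.95, 4.11 and 3.19 on the AAV-GFP arrays, against 1.93, 2.95, 1.62 and 1.65 on the AAV-hGRB arrays and 1.84, 2.49, 2.86 and 2.04 on the PBS arrays. Here AAV-GFP replicate 2 and AAV-hGRB replicate 2 were equal to 2 decimals. The dimmest probe read -1.20, -1.98, -1.42 and -2.04 on the AAV-GFP arrays, against -3.26, -2.16, -3.20 and -3.28 on the AAV-hGRB arrays and -2.57, -2.69, -2.48 and -3.10 on the PBS arrays. The differences of the middle and the dimmest probe were 1.45 (SE 0.33) and 1.18 (SE 0.25). Between an AAV-GFP array and its neighbours on the same slide, the brightest probe differed by 1.77 on slide 1, 1.29 on slide 5 and 1.85 on slide 6. Under other scalings its groups overlapped after quantile normalization and after scaling on commonly detected probes, while the dimmest probe overlapped only with normexp.

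Since Slc25a25, Pck1 and G6pc had positive differences and belong to the fasting response, their promoters were read for the cyclic AMP response element (TGACGTCA, or its half-site TGACG, on either strand), the TATA box (TATAAA) and the core of the insulin response sequence (CAAAACA). The sequences are RefSeq's on build GRCm38.p6, 250 bases before to 50 bases after the start, 5′ to 3′ on the gene's strand. Capitals mark the response element or half-site in Slc25a25 and Pck1, and in G6pc the insulin response core, on the opposite strand, and the TATA box.
Slc25a25, chr2:32424017-32424316, minus strand: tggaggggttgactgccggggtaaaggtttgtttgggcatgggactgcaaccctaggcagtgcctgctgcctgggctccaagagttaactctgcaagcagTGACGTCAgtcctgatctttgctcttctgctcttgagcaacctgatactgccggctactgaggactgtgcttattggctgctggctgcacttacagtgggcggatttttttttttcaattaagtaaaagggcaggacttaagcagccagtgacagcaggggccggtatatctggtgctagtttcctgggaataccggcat
Pck1, chr2:173152823-173153122, plus strand: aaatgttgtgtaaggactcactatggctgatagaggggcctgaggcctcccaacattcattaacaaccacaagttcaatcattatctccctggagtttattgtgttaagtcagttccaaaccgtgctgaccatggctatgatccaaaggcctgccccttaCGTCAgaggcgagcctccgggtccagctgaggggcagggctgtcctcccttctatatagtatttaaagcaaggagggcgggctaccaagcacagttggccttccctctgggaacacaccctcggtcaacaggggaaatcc
G6pc, chr11:101367466-101367765, plus strand: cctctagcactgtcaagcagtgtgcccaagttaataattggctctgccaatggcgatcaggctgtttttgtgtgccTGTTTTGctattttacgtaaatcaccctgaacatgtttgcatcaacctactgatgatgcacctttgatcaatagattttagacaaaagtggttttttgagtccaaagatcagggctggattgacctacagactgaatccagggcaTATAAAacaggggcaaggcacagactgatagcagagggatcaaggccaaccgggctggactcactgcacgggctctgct

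In Slc25a25 the full 8-base element lies 150 to 143 bases before this start, and it contains the half-site on both strands. The other 2 annotated starts of the gene, with promoters at chr2:32451421-32451720 and chr2:32431102-32431401, hold neither the element nor its half-site. The Pck1 promoter holds the half-site on the minus strand 90 to 86 bases before the start. G6pc has the TATA box 29 to 24 bases and the insulin response core 174 to 168 bases before the start. Neither TGACGTCA nor TGACG occurs exactly in this G6pc window. Only exact letters were searched, so a variant form of the cyclic AMP response element would be missed and its absence is not shown. Among all 32851 promoters of the table, 1.79% hold the full element, 20.8% the half-site, 13.6% the TATA letters and 6.28% the insulin response core. Counted by gene, 2.03% of the 27025 genes in the table hold the full element at any of their starts and 23.0% the half-site. Of the 23 genes that stood apart, 15 are in the table with 20 promoters, and 3 of the 15 hold the full element at any start (Ppp2r2d, Senp2 and Slc25a25) and 6 at least a half-site. Of the 24 fasting-induced and CREB-induced genes described below, 19 are in the table, 2 with the full element (Dusp1 and Slc25a25) and 11 with at least a half-site. These matches are descriptions of the letters and say nothing of binding.

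Angptl4, a secreted inhibitor of lipoprotein lipase that is induced by fasting and by PPAR alpha, also stood apart on its only tested probe (mm7 chromosome 17, 31849774 to 31849833). Its level was 6.99, 7.09, 7.41 and 7.53 on the AAV-GFP arrays, against 6.17, 6.81, 5.74 and 6.20 on the AAV-hGRB arrays and 5.84, 6.26, 6.91 and 5.59 on the PBS arrays. PBS replicate 3 and AAV-hGRB replicate 2 came nearest to the AAV-GFP arrays. The difference was 1.06 (SE 0.26), or 2.09-fold, and 1.01 without AAV-GFP replicate 3. It was 1.02 against AAV-hGRB and 1.10 against PBS, with 0.08 between AAV-hGRB and PBS. The groups overlapped after quantile normalization, where the difference was 0.91.

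Slc25a25 and Angptl4 are both in a list of 24 fasting-induced and CREB-induced genes, 23 of them on the array and 22 tested. Of the 22, 16 had a positive and 6 a negative difference, and the median was 0.23, beside 0.04 over all genes. It was 0.35 against AAV-hGRB and 0.14 against PBS. An unadjusted limma p under 0.05 was reached by 7 in the higher direction and 0 in the lower one, where 1.22% of all genes reached it in the higher and 0.514% in the lower direction. None passed the adjusted test. The mean level of the list was 3.60, 3.16, 3.56 and 3.41 on the AAV-GFP arrays and 2.84 to 3.26 on the 8 others, so AAV-GFP replicate 2 lay within the range of the others. The list and its members were chosen with results of these data known, so its direction is not independent evidence.

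Among the enzymes of glucose production, Pck1, phosphoenolpyruvate carboxykinase, read 8.21, 8.04, 9.06 and 8.18 on the AAV-GFP arrays, against 7.64, 8.22, 7.77 and 7.39 on the AAV-hGRB arrays and 7.41, 7.61, 8.10 and 7.50 on the PBS arrays. The dim AAV-GFP replicate 3 was the highest, and the groups overlapped through AAV-hGRB replicate 2 and PBS replicate 3. Its difference was 0.67 (SE 0.23), and 0.44 without AAV-GFP replicate 3. G6pc, the catalytic subunit of glucose-6-phosphatase, read 6.54, 5.27, 6.04 and 6.69 on the AAV-GFP arrays, against 4.08, 6.15, 4.02 and 4.79 on the AAV-hGRB arrays and 3.39, 5.27, 5.80 and 4.91 on the PBS arrays. AAV-GFP replicates 2 and 3 were inside the range of the others, both below AAV-hGRB replicate 2, and the same AAV-hGRB and PBS arrays were the high ones. The difference of G6pc was 1.33 (SE 0.47), 1.38 against AAV-hGRB and 1.29 against PBS.

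Of the signalling genes on this list, Nr4a1, an orphan nuclear receptor induced by cyclic AMP, read 3.53, 1.14, 2.24 and 1.50 on the AAV-GFP arrays, against 0.01, 0.72, 1.11 and 0.21 on the AAV-hGRB arrays and -0.32, 1.52, 0.75 and 1.16 on the PBS arrays. AAV-GFP replicate 1 was far above all others, and replicates 2 and 4 overlapped the PBS arrays. Its difference was 1.46 (SE 0.43). Sik1, a kinase that restrains CREB coactivators, read -1.47, -2.42, -0.45 and -1.02 on the AAV-GFP arrays, against -2.38, -1.67, -2.74 and -2.40 on the AAV-hGRB arrays and -1.67, -2.44, -1.90 and -2.66 on the PBS arrays. AAV-GFP replicate 2 again sat among the others. Its difference was 0.89 (SE 0.33), 0.60 without AAV-GFP replicate 3 and 0.40 with normexp background correction. Nr4a1, Sik1 and Klf15, a fasting-induced transcription factor with a difference of 0.49 (0.32 without AAV-GFP replicate 3), were named after their values had been seen.

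Tat, tyrosine aminotransferase, is induced by both cyclic AMP and glucocorticoids. Its level was 7.38, 7.30, 7.59 and 7.81 on the AAV-GFP arrays, against 7.25, 6.93, 6.26 and 6.65 on the AAV-hGRB arrays and 7.09, 7.28, 7.02 and 7.52 on the PBS arrays. The AAV-GFP arrays were above all AAV-hGRB arrays and overlapped PBS replicate 4. The differences were 0.75 against AAV-hGRB and 0.29 against PBS, 0.52 in all (SE 0.22), and 0.34 with the slide as a block. Other fasting genes had differences near or below 0. Ppargc1a, the coactivator PGC-1 alpha, had -0.22 (SE 0.28), Igfbp1, an IGF-binding protein, -0.07 (SE 0.69), and Cpt1a, the carnitine palmitoyltransferase of fatty acid entry, -0.05 (SE 0.29). Pdk4, a kinase that switches off pyruvate dehydrogenase in fasting, had -0.44 (SE 0.27), the lowest of the list.

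**Figure D3:**
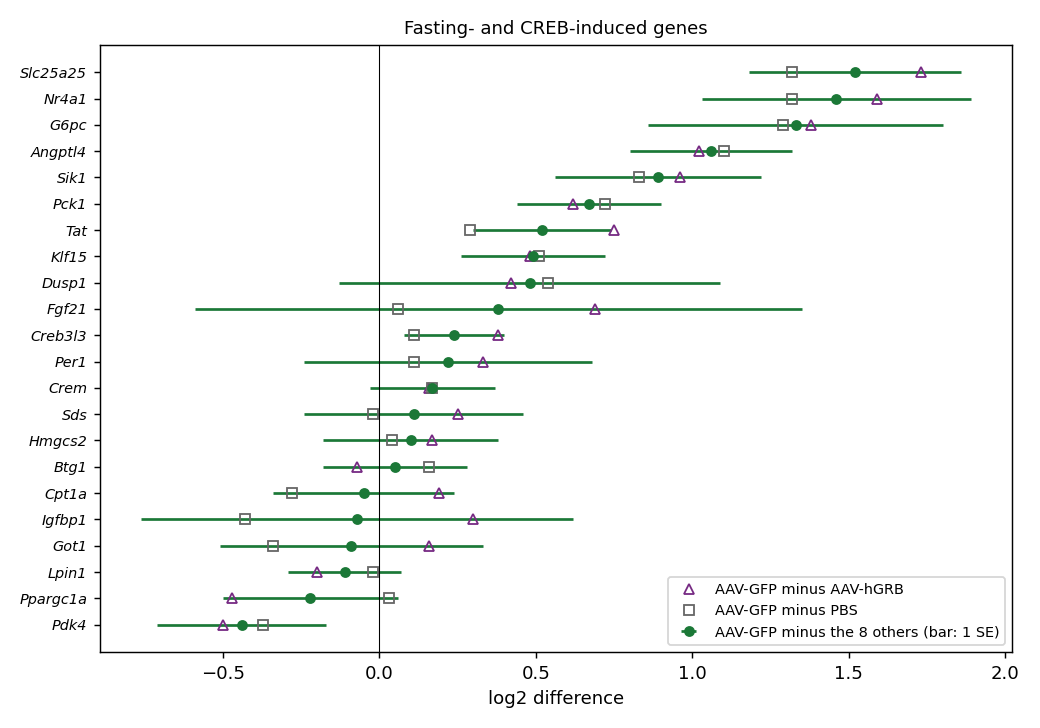
Differences of the 22 tested fasting-induced and CREB-induced genes (x axis: log2 difference). Filled circles with bars give AAV-GFP minus the 8 others with 1 SE, triangles AAV-GFP minus AAV-hGRB and squares AAV-GFP minus PBS, which share the AAV-GFP arrays. Slc25a25 at 1.52 is at the top and Pdk4 at -0.44 at the bottom.

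Other lists of metabolism held fewer such genes. The shares over all genes to set beside these counts are 57.1% with a positive difference, 1.22% higher and 0.514% lower at an unadjusted limma p under 0.05. Of 20 gluconeogenesis genes, 14 were positive with 3 at that p, all higher (Pck1, G6pc and Tat are counted in more than 1 list), with a median difference of 0.12 (0.18 on leaving out AAV-GFP replicate 3). Of 24 genes of fatty acid oxidation and PPAR alpha targets, 19 were positive, 2 at that p, with a median of 0.13 that was 0.36 without AAV-GFP replicate 3. The second of these beside Angptl4 was Acadvl, the very-long-chain acyl-CoA dehydrogenase, which averaged 8.01 ± 0.15 on AAV-GFP arrays and 7.60 ± 0.32 on the others (SD). Its difference of 0.42 was 0.24 after quantile normalization and 0.27 with the slide as a block. Among 22 mitochondrial carriers of the SLC25 family the median difference was 0.13 (0.24 without AAV-GFP replicate 3), and Slc25a25 was the only one at that p. Slc25a47, a liver-specific carrier, followed with 0.47 (SE 0.29), and 0.30 without AAV-hGRB replicate 1. Against AAV-hGRB the medians of these 3 lists were 0.25, 0.29 and 0.24, in the order given. Against PBS they were -0.01, 0.02 and -0.02, and AAV-hGRB minus PBS had -0.27, -0.28 and -0.31. By their medians, AAV-GFP was thus near PBS on these lists and AAV-hGRB was lower.

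The remaining named genes that stood higher in AAV-GFP belong to no single list. Fam3b, a secreted cytokine-like protein also called PANDER, was a dim probe on chromosome 16. Its level was -3.75, -3.71, -2.88 and -3.75 on the AAV-GFP arrays, against -4.41, -4.80, -5.26 and -4.88 on the AAV-hGRB arrays and -5.85, -4.18, -4.38 and -4.80 on the PBS arrays. The dim AAV-GFP replicate 3 was the highest array. The probe was well above background on 4 of 4 AAV-GFP arrays and on 2 of the 8 others, so it was tested only because of the AAV-GFP arrays, and 6 of the 8 values it was set against were not well above background. The difference was 1.30 (SE 0.30), 1.09 without AAV-GFP replicate 3 and 0.24 with normexp background correction.

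Wnk4, a kinase that controls salt transporters in the kidney, read -0.99, -1.28, -0.88 and -1.11 on the AAV-GFP arrays, against -2.34, -1.77, -2.09 and -1.64 on the AAV-hGRB arrays and -1.90, -1.40, -1.30 and -1.87 on the PBS arrays. The groups were separated by 0.02 only, between AAV-GFP replicate 2 and PBS replicate 3. The difference was 0.72 (SE 0.20), with 0.90 against AAV-hGRB and 0.55 against PBS, and 0.44 with normexp background correction. Adh6-ps1, an alcohol dehydrogenase pseudogene by the array design's name, read 2.12, 2.28, 2.45 and 2.43 on the AAV-GFP arrays, against 1.93, 1.87, 0.65 and 1.27 on the AAV-hGRB arrays and 0.49, 1.86, 1.65 and 0.87 on the PBS arrays. The AAV-GFP arrays were close to each other and the 8 others spread over a wider range. Its difference was 1.00 (SE 0.29), or 2.00-fold. A probe of this family could also bind transcripts of related Adh genes, so its identity is uncertain.

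Membrane transporters made up a further pair. Slc38a2, the amino acid transporter SNAT2, which is induced by cyclic AMP and by amino acid shortage, read 3.66, 3.29, 3.27 and 3.62 on the AAV-GFP arrays, against 2.95, 3.08, 2.78 and 3.03 on the AAV-hGRB arrays and 3.03, 3.15, 3.15 and 2.72 on the PBS arrays. The AAV-GFP arrays were all higher, by 0.47 on average (SE 0.15). Its other 3 probes had differences of 0.05, 0.22 and 0.05 and overlapped between the groups, and the brightest probe itself overlapped under each of the 4 other scalings. Slc35g1, a multipass membrane protein of the solute carrier families, read 1.79, 2.63, 1.72 and 1.69 on the AAV-GFP arrays, against 1.53, 1.53, 1.44 and 1.18 on the AAV-hGRB arrays and 0.92, 1.45, 0.86 and 1.46 on the PBS arrays. AAV-GFP replicate 2 was far above the other 3, and the difference of 0.66 (SE 0.22) was 0.44 without it. Its other probe had a difference of 0.64 with overlapping groups.

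Cyp2c23, an arachidonic acid epoxygenase, read 7.18, 7.03, 7.25 and 6.93 on the AAV-GFP arrays, against 6.79, 6.52, 6.56 and 6.78 on the AAV-hGRB arrays and 6.10, 6.68, 6.89 and 6.81 on the PBS arrays. Every AAV-GFP array was higher, by 0.04 at the nearest point, and the difference was 0.46 (SE 0.17), or 0.29 after quantile normalization. Chuk, the kinase IKK alpha of the NF-kappaB pathway, averaged 2.85 ± 0.11 on AAV-GFP arrays and 2.50 ± 0.11 on the others (SD), a difference of 0.35. Its second probe had a difference of 0.05 (SE 0.45). Both genes lie on chromosome 19, as does Slc35g1.

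Senp2, a protease that removes SUMO from proteins, varied little among the arrays. It read 0.73, 0.82, 0.73 and 0.90 on the AAV-GFP arrays, against 0.41, 0.45, 0.38 and 0.50 on the AAV-hGRB arrays and 0.50, 0.53, 0.42 and 0.57 on the PBS arrays. The groups were 0.16 apart, but the difference was 0.33 (SE 0.13), or 1.25-fold, and the other 2 probes of the gene had 0.18 and -0.04. Ppp2r2d, a regulatory subunit of protein phosphatase 2A, had a difference of 0.35 (SE 0.13), or 0.23 after quantile normalization. Zbtb44, a zinc finger protein, had 0.34 (SE 0.14), with a gap between the groups of 0.001. Chfr, a mitotic checkpoint ubiquitin ligase, and Rpf1, a ribosome biogenesis factor, also stood apart with 0.28 and 0.25, and their other probes had values of -0.33 for Chfr and of -0.03 and -0.11 for Rpf1. Chfr and Rpf1 fall outside the naming rule and are named because the set is small. The RIKEN clone 4930556M19Rik, a dim probe well above background on 3 of 4 AAV-GFP arrays and 4 of the 8 others, had a difference of 1.41 (SE 0.39) that was 0.27 with normexp background correction.

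**Figure D4:**
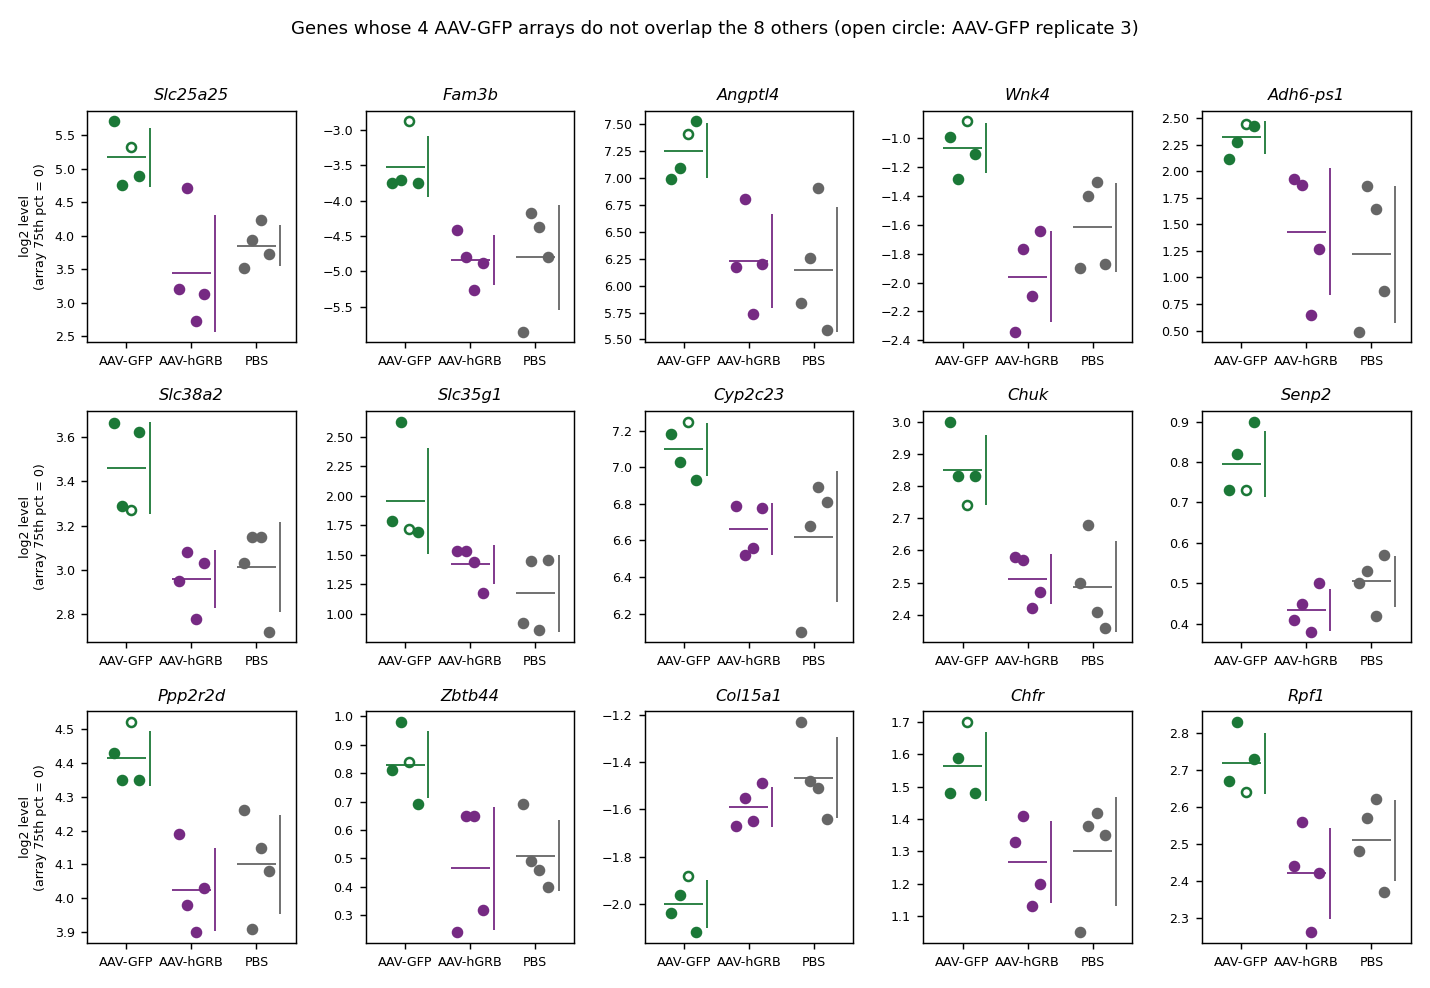
Levels of 15 genes whose AAV-GFP arrays do not overlap the 8 others (y axis: log2 level, 0 is the array's 75th percentile; 1 point per array). Horizontal lines are group means, vertical lines are mean ± 1 SD, and the open circle is AAV-GFP replicate 3. In Col15a1 the AAV-GFP arrays lie below the others, from -2.12 to -1.88, and in the other 14 genes they lie above.

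In the lower direction 1 named gene and 2 RIKEN clones stood apart. Col15a1, a collagen of basement membranes, read -2.04, -1.96, -1.88 and -2.12 on the AAV-GFP arrays, against -1.67, -1.55, -1.65 and -1.49 on the AAV-hGRB arrays and -1.23, -1.48, -1.51 and -1.64 on the PBS arrays. All AAV-GFP arrays were below all others, with a gap of 0.21. The difference was -0.47 (SE 0.14), -0.41 against AAV-hGRB and -0.54 against PBS. The clones C030016K15Rik and 1700060H10Rik had -0.56 and -0.63, and on 1700060H10Rik AAV-GFP replicate 3 read -3.23, against -2.25 to -2.03 on the other AAV-GFP arrays. With normexp background correction these were -0.30 and -0.25, and 1700060H10Rik had -0.37 without AAV-GFP replicate 3.

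A further 5 genes stood apart only on a probe that was not their brightest. Ugt2b37, a glucuronosyltransferase of a family with near-identical copies, had 0.50 on that probe and 0.02 on its brightest. Mrpl57, a mitochondrial ribosomal protein, had 0.45 (0.10 with normexp background correction) and 0.27, Aldoa, the glycolytic aldolase A, 0.32 and 0.32, and Agpat3, an acyltransferase of phospholipid synthesis, 0.24 and 0.27. Epm2aip1, a partner of the glycogen phosphatase laforin, had -0.67 on a dim probe and -0.14 on its brightest. After quantile normalization Aldoa had 0.18 and Agpat3 0.15 on the probe that stood apart, and Epm2aip1 had -0.15 with normexp background correction. The dim probe was well above background on 0 of 4 AAV-GFP arrays, where it averaged -5.01, against -4.34 on the 8 others. With the AAV-GFP arrays set to the background bound of -4.49, it was 1.11-fold lower in AAV-GFP. Only 5 of the 8 others were well above background and all were left as measured, so this value is no strict lower bound. Angptl4, Fam3b, Wnk4, Adh6-ps1, Cyp2c23, Ppp2r2d, Zbtb44, Col15a1 and the 3 clones were tested on 1 probe each, so no second probe bears on them.

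The 25 probes had a median G+C content of 45%, beside 43.3% for all tested probes, and a median level of 1.52, beside -1.07. Of them, 20 were well above background on all 12 arrays. The size of their differences ran from 0.24 to 1.52, and 7 reached 1 or more. The rule that makes a gene stand apart has no margin. Just inside it in the higher direction were Zbtb44, Rpf1 and Wnk4 with gaps of 0.001, 0.018 and 0.02, and just outside were Ppp4r2, Zfpm1 and Man2a1 with overlaps of -0.002, -0.009 and -0.009. In the lower direction 1700060H10Rik was just inside with 0.009, and Cd2, Bad and Lsp1 were just outside with -0.003, -0.012 and -0.014.

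Which array was left out changed the number of such probes more than the 4 other scalings did. It was 258 without AAV-GFP replicate 3 (0.97% of those tested), 191 without replicate 1, 105 without replicate 4 and 94 without replicate 2. Leaving out PBS replicate 3 gave 124, and leaving out any other AAV-hGRB or PBS array gave 32 to 53. A group of 3 arrays separates from the rest more easily than one of 4, so these counts do not show by themselves that 1 array differs. In all of these settings 0 probes passed the adjusted limma test.

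Several genes had a difference that came wholly or in part from 1 AAV-GFP array. Cyp3a11, the main steroid and drug hydroxylase of mouse liver, read 6.13, 6.98, 2.69 and 6.31 on the AAV-GFP arrays, against 6.03, 5.84, 6.68 and 6.27 on the AAV-hGRB arrays and 7.02, 6.20, 4.98 and 6.55 on the PBS arrays. AAV-GFP replicate 3 was far below every other array. The difference was -0.67 (SE 0.64) with it and 0.28 without it. Ldha, lactate dehydrogenase A, behaved likewise, with 5.93 on AAV-GFP replicate 3 and 7.18 to 8.15 on the other 3, against 7.34 to 8.22 on the 8 others. Its difference was -0.42 with that array and 0.04 without it.

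Serpina3n, an acute phase protease inhibitor, read -0.01 on AAV-GFP replicate 3 and 2.73 to 2.90 on the other AAV-GFP arrays, against 1.95 to 3.98 on the 8 others. Its difference of -0.96 was -0.26 without that array. Gsta1, a glutathione transferase of the NRF2 response, read 4.74, 5.34, 2.98 and 4.67 on the AAV-GFP arrays, against 5.75, 6.26, 5.85 and 5.79 on the AAV-hGRB arrays and 5.97, 4.82, 4.66 and 5.41 on the PBS arrays. AAV-GFP replicate 3 was the lowest, and the others overlapped PBS but not AAV-hGRB. The difference was -1.13 (SE 0.41), and -0.64 without AAV-GFP replicate 3. Gsta2, its close paralogue, had -1.10 and -0.67. The 2 genes are similar in sequence, so their probes may not be independent.

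AAV-GFP replicate 2 carried another set. Krt19, a keratin of bile duct cells, read -1.61, 2.79, -0.64 and -0.04 on the AAV-GFP arrays, against -1.51 to -0.51 on the 8 others. Cldn7, a tight junction protein of epithelia, read 0.54 on that array and -2.00 to -1.78 on the other AAV-GFP arrays. Reg1, a secreted protein of pancreatic acinar cells, read -3.45, 0.89, -3.93 and -5.60 on the AAV-GFP arrays and -6.34 to -3.99 on the 8 others. It was well above background on 2 of 4 AAV-GFP arrays and 2 of the 8 others, and AAV-GFP replicates 1 and 3 also read above all 8. Its difference of 2.17 was 0.87 without AAV-GFP replicate 2 and 0.84 with normexp background correction. Without AAV-GFP replicate 2 the difference of Krt19 was 0.19 in place of 1.08 and that of Cldn7 0.10 in place of 0.71. Whether other tissue was taken with this sample was not tested.

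**Figure D5:**
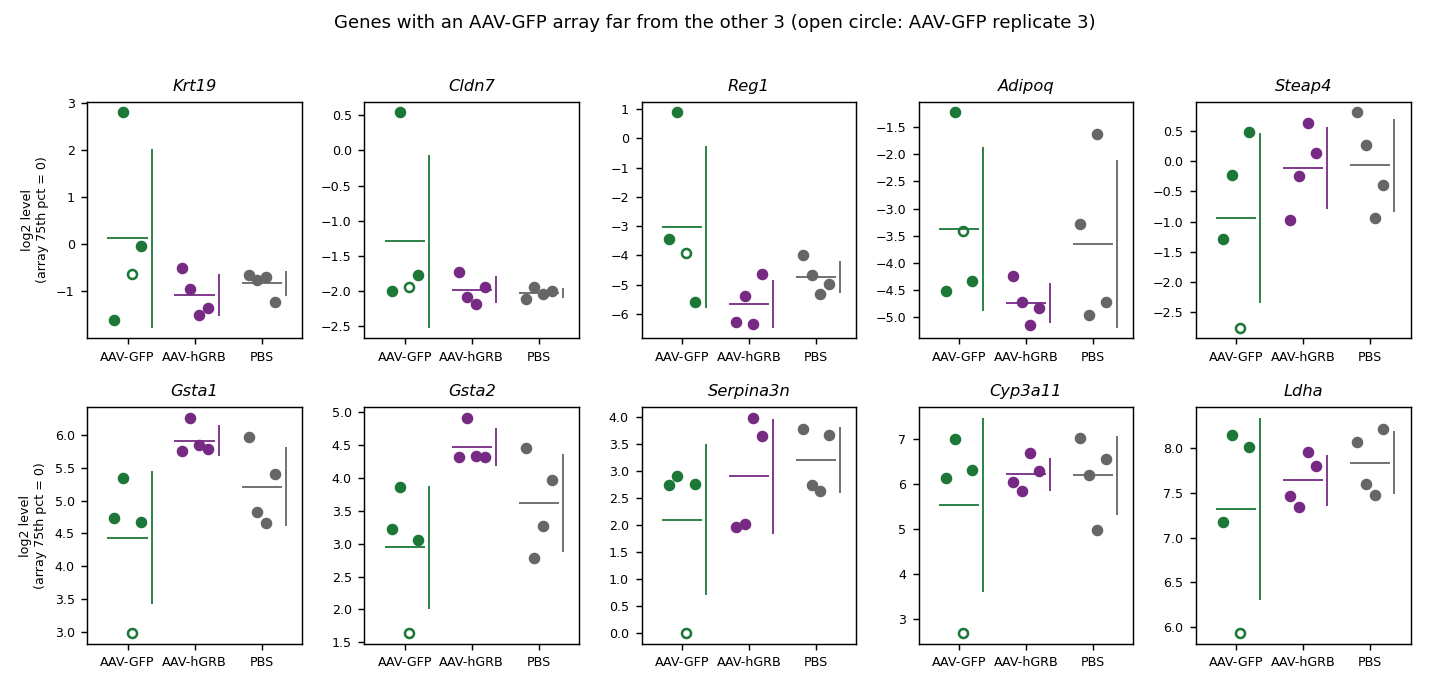
Genes with an AAV-GFP array far from the other 3 (y axis: log2 level; 1 point per array, horizontal lines the means, vertical lines mean ± 1 SD, open circle AAV-GFP replicate 3). Krt19 reads 2.79 on AAV-GFP replicate 2, and Cyp3a11 reads 2.69 on AAV-GFP replicate 3. The genes were chosen for this pattern.

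Among markers of other cell types, the neutrophil genes had the lowest median. Of 9 tested, 7 were negative and 3 had an unadjusted limma p under 0.05, all lower, where 0.514% of all genes were lower at that p. The median difference was -0.58, and -1.01 without AAV-GFP replicate 3. S100a8, a calcium-binding protein of neutrophils, read -3.07, -2.02, -1.26 and -1.86 on the AAV-GFP arrays, against -1.30, -1.68, -0.50 and -1.20 on the AAV-hGRB arrays and -0.86, -0.66, -0.94 and -0.55 on the PBS arrays. AAV-GFP replicate 3 overlapped the AAV-hGRB arrays, and the other 3 were below all 8. The difference was -1.09 (SE 0.31), and -0.60 with normexp background correction. Its partner S100a9 had -1.06 (SE 0.34). The summed level of the list ran from 1.46 to 3.30 on AAV-GFP arrays and from 2.35 to 3.89 on the 8 others, so the ranges overlapped.

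The T cell and NK cell list had 13 of 17 negative with a median of -0.29. That median was -0.41 against AAV-hGRB and -0.10 against PBS, and AAV-hGRB minus PBS had 0.44. Cd2, an adhesion receptor of T cells, had -0.84 (SE 0.27), well above background on 2 of 4 AAV-GFP arrays. That value was -0.52 without AAV-GFP replicate 3 and -0.17 with normexp background correction. The B cell list had 6 of 9 negative with a median of -0.05 (-0.26 without AAV-GFP replicate 3), and its Cd22, an inhibitory receptor, had -0.71 (SE 0.21), or -0.28 with normexp background correction. Kupffer cell and macrophage markers had 10 of 17 negative with a median of -0.07 (-0.03 without that array). Endothelial markers had a median of 0.02, and -0.04 without that array. Lyve1, a hyaluronan receptor of sinusoids, had -0.61 (SE 0.19): it read -0.16, 0.56, 0.26 and 0.31 on the AAV-GFP arrays, against 1.03, 0.85, 0.84 and 1.13 on the AAV-hGRB arrays and 1.15, 0.64, 0.29 and 0.88 on the PBS arrays. All AAV-GFP arrays were below the AAV-hGRB arrays and overlapped PBS replicate 3.

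The other cell type lists had a median difference of 0.09 for 15 hepatocyte markers, 0.14 for 5 erythroid markers, 0.36 for 11 cholangiocyte markers and -0.04 for 12 stellate cell markers. Without AAV-GFP replicate 3 the erythroid median was -0.03, the other sign, and the stellate cell median -0.07. Adipocyte, acinar and skeletal muscle markers had 0.23, 0.51 and -0.25 over 6, 7 and 5 genes, and the adipocyte median was 0.07 without that array. Tnni2, a troponin of fast muscle, read 2.13 on PBS replicate 1 and -2.09 to -1.48 on the other PBS and AAV-hGRB arrays.

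Most interferon-induced genes had negative differences. Of 33 tested, 31 had a negative difference, with a median of -0.74, and only Rsad2, the antiviral enzyme viperin, had an unadjusted limma p under 0.05. Against AAV-hGRB the median was -1.47 and against PBS it was 0.13, while AAV-hGRB minus PBS had 1.59, so the AAV-hGRB arrays stood off from both other groups here. Rsad2 read -0.40, 0.10, -0.41 and -0.40 on the AAV-GFP arrays, against 0.40, 2.63, 2.65 and 1.33 on the AAV-hGRB arrays and 0.02, 0.40, -0.13 and 1.63 on the PBS arrays. The AAV-GFP arrays were below all AAV-hGRB arrays and overlapped PBS. The 18 p53 targets showed the same order, with medians of -0.34 against AAV-hGRB and 0.06 against PBS. Their Cdkn1a, the cell cycle inhibitor p21, had -1.88 against AAV-hGRB and -0.26 against PBS, and Mdm2, the ubiquitin ligase of p53, -0.83 and -0.35.

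Of 20 glucocorticoid-induced genes, 11 were positive with a median of 0.10, which without AAV-GFP replicate 3 was -0.03, the other sign. An unadjusted limma p under 0.05 was reached by 5, all higher, where 1.22% of all genes were higher at that p. Those are Angptl4, Pck1, G6pc and Tat, also counted above, and Sgk1, a serum- and glucocorticoid-induced kinase, with 0.42 (SE 0.18), named after its value was seen. Nr3c1, the gene of GR itself, read 0.48, 0.36, 0.46 and 0.05 on the AAV-GFP arrays, against 0.49, 0.27, 0.58 and 0.28 on the AAV-hGRB arrays and 0.14, 0.43, 0.40 and 0.49 on the PBS arrays. The groups overlapped throughout, with a difference of -0.05 (SE 0.15), which ran from -0.14 to 0.05 over the settings tried. This probe has its name from the array design only. The other 3 tested probes of the gene, named by accession, were dimmer, averaging -2.79, -3.64 and -4.85 on the 8 others. Their differences were -0.13 (SE 0.20), -0.35 (SE 0.25) and -0.19 (SE 0.32), with overlapping groups. Without a group that has intact GR, and since the probes are not stated to lie in the deleted part, these levels do not check the knockout.

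The growth hormone and male-biased list had 14 of 19 positive with a median of 0.29, and the female-biased list had 9 of 10 negative with a median of -0.32. The female-biased median was -0.03 against AAV-hGRB and -0.61 against PBS, so PBS stood off from both other groups there. The male-biased median was 0.28 against AAV-hGRB and 0.27 against PBS. Hsd3b5, a male-specific steroid dehydrogenase, averaged 5.54 ± 0.50 on AAV-GFP arrays and 4.58 ± 0.78 on the others (SD). Its AAV-GFP values were 5.81, 5.79, 4.79 and 5.77, and the groups overlapped. Without AAV-GFP replicate 3 the median of the female-biased list was 0.15, the other sign. Of 20 cell cycle genes 18 were positive with a median of 0.25, among them Foxm1, a transcription factor of mitosis, with 0.52 (SE 0.21), or 0.33 without AAV-GFP replicate 3 and 0.14 with normexp background correction. That list differed by 0.01 from AAV-hGRB and by 0.45 from PBS.

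The medians of the remaining lists are given with the value without AAV-GFP replicate 3 after each. Respiratory chain genes had 0.14 (0.25) with 14 of 20 positive, and Cox4i1, a subunit of cytochrome c oxidase, had 0.41 (SE 0.18), or 0.23 after quantile normalization. Urea cycle and amino acid breakdown genes had 0.14 (0.22), and their Glul, glutamine synthetase, had 0.43 (SE 0.20). Circadian clock genes had 0.22 (0.04) over 19 genes and insulin-induced lipogenesis genes 0.08 (0.00) over 16. The medians of the lists named so far were 0.27, 0.33, 0.21 and 0.18 against AAV-hGRB, in the order given. Against PBS they were -0.01, -0.08, -0.02 and -0.07. Over 19 genes each, acute phase genes had -0.18 (-0.04) and cholesterol synthesis genes -0.18 (-0.12). Bile acid genes had 0.09 (0.21) over 14, with Abcb11, the bile salt export pump, at 0.58 (SE 0.28), or 0.38 after quantile normalization. ER stress genes had 0.05 (0.02) over 17, with Trib3, a pseudokinase induced by stress and fasting, at 0.60 (SE 0.27), or 0.36 without AAV-GFP replicate 1. NRF2 targets had 0.00 (0.03) over 15, hypoxia targets 0.05 (0.22) over 14 and xenobiotic genes 0.03 (0.20) over 16. Immediate early and heat shock genes had 0.02 over 19 and -0.08 without AAV-GFP replicate 3, the other sign.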

How the data were processed

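Each scanner file, as deposited, gives linear spot intensity in 1 colour. The processed intensity was made with Feature Extraction version 9.5.3.1 (Agilent), per the file headers, by subtracting a background, here the spatial detrend surface (100% of spots), detrending each array and giving a surrogate value to spots not above background. The submitters' processing notes name version 9.5. The deposited series matrix holds the same linear intensity, uncentred (540216 values, relative tolerance 1e-06).

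From the deposited intensity, log2 values were computed for 43379 non-control spots, averaged per probe (41174 probes), and the array's 75th percentile was subtracted. A probe was tested if well above background on at least 4 of 12 arrays (26593 probes, 14581 not tested). limma 3.58.1 in R 4.3.3 fitted AAV-GFP against the 8 other arrays, two-sided with 10 residual degrees of freedom and Benjamini-Hochberg adjustment over all tested probes. A second fit with 3 groups gave the differences between pairs of groups. Single genes have an exact permutation test over 495 arrangements. The fit was tested on simulated data. The number of arrays limits the precision.

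Names came from RefSeq through the systematic accession (22951 probes) or another accession (131), and otherwise from the array design (18092). The brightest tested probe stands for a gene. Named are the 12 genes of lowest limma p among those standing apart in each direction, clones left out, the 2 of lowest p in each list, and Nr3c1, Pck1, G6pc and Slc25a25. Members, lists and rule were chosen with earlier results of these data known. Lists are described by counts and medians. Correlations of the deviations of samples with the same replicate number had no common sign (from -0.43 to 0.59), so the numbers were not used as pairs. Both extremes were at replicate 3 on slide 6, AAV-GFP with AAV-hGRB at -0.43 and AAV-GFP with PBS at 0.59.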

Additional observations from a re-analysis of the deposited data

Results flagged for a closer look

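Groups of 4 arrays were examined for most named genes, and also for array brightness and the share of probes well above background. Of these 273 groups, 22 held an array whose gap to the nearest other array was an unusually large share of the group's range. The criterion was Dixon's at the 95% level. Chance flags about 1 in 20 groups of an unselected set, whereas these genes were chosen with results of these data known. Of the 22, 12 were in AAV-GFP, 6 of them on the dim replicate 3.

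On AAV-GFP replicate 3, Fam3b was high at -2.88, against -3.75 to -3.71 on the other AAV-GFP arrays (share 0.949). Bhlhe41, a circadian repressor, was high at -2.46 (0.874) and Pck1 at 9.06 (0.835). Serpina3n was low at -0.01 (0.942), Hsd3b5 at 4.79 (0.962) and Mylpf, a muscle myosin light chain, at -2.77 (0.831). On AAV-GFP replicate 2, Slc35g1 was high at 2.63 (0.889), Cldn7 at 0.54 (0.914), Rsad2 at 0.10 (0.975) and 4930556M19Rik at -2.32 (0.885). Cela1, a pancreatic elastase, was low on AAV-GFP replicate 1 at -4.67 (0.925), and C030016K15Rik on AAV-GFP replicate 4 at -3.69 (0.898).

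In AAV-hGRB, Cd22 was high on replicate 3 at -2.58 (0.906), and Gsta2 and Uqcrc1, a subunit of respiratory complex III, were high on replicate 2 at 4.91 (0.974) and 6.48 (0.958). In PBS replicate 1, Tnni2 was high at 2.13 (0.859), and Abcb11 at 6.34 (0.835), Hk2, a hexokinase, at -0.89 (0.854) and Col3a1, a fibrillar collagen, at 0.44 (0.831) were low. In the other PBS arrays, Trib3 was high on replicate 3 at 1.94 (0.949), Cela1 was low on replicate 3 at -5.18 (0.878), and Cdkn1a was high on replicate 4 at -0.35 (0.836). The part of array quality in these values was not tested.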

How the results depend on the processing

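The number of probes called by limma at an adjusted p under 0.05 was 0 under each setting that was run, and the lowest adjusted p was 0.391, without AAV-GFP replicates 3 and 4, a setting chosen after seeing the data. An unadjusted limma p under 0.05 was reached by 454 probes as reported, 438 with the replicate block, 373 and 460 with the slide as a fixed and as a random block, 493 with 3 groups fitted and 1536 with array weights, which gave AAV-GFP replicate 3 the lowest weight (0.164). It was reached by 108 with normexp and 926 with no filter on dim probes. The replicate numbers were not used as pairs, and with the replicate block 0 probes were called. Probes standing above all others numbered 21 as reported, 37 with no filter, 23 to 201 with 1 array left out (201 without AAV-GFP replicate 3), and 520 when both AAV-GFP replicates 3 and 4 were left out. Probes below all others numbered 4 as reported, 0 with normexp, 8 after quantile normalization, 2 after median scaling, 2 when restricted to probes well above background on all arrays, 10 with the percentile over commonly detected probes, 8 to 57 with 1 array left out and 305 without AAV-GFP replicates 3 and 4. These counts have no value under the settings that change only the model. The sign turned for Cyp17a1 (0.06) and Tnni2 (0.00) with the slide block, Nr3c1 with normexp (0.01), without AAV-GFP replicate 4 (0.05, the highest value on leaving out 1 array, with -0.10 without replicate 1 the lowest) and without replicates 3 and 4 (0.03), Apoa2 after quantile normalization (-0.03), Ldha, Mylpf and Cyp3a11 with array weights (0.10, 0.03 and 0.13), Ldha and Cyp3a11 without AAV-GFP replicate 3 (0.04 and 0.28, the highest values on leaving out 1 array, with -0.70 and -1.15 the lowest), and Ahsg and Cyp3a11 without replicates 3 and 4 (-0.03 and 0.36). The cause was not tested. Scan day as a block was not run, since the second day held only AAV-GFP replicate 4. Brightness over background limits dim probes such as Fam3b, whose differences shrink under normexp.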
